A study of Mus musculus with 33 samples.

Results

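The comparison set livers of fasted mice given rapamycin and then food for 3 h against livers of mice given the same drug and no food. It was defined by the sample labels alone and takes 6 of the 33 arrays of the series, 3 from each group. All mice were adult males that went 22 h without food, were injected with rapamycin at 10 mg/kg in 0.9% NaCl and 2% ethanol, and waited 2 h more. The 0 h group was then killed, and the 3 h group had free access to food for 3 h, so that it was killed 5 h after the injection. Vehicle-injected mice on the same schedule (3 at 0 h and 3 at 3 h) share no array with these and are given for comparison. Strain is not given in the labels, and each sample is 1 array, with no pooling of mice stated. The p-values rest on the spread between arrays within groups, estimated over all 33 arrays in 11 groups and not from these 6 alone. The question is which early feeding responses of the liver persist when mTORC1 is inhibited. Hours of feeding, hours since injection and time of day change together between the groups and cannot be told apart, and mTORC1 activity itself is not measured by an array.

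In the fasted liver, low insulin and high glucagon and glucocorticoids keep FOXO and CREB transcription factors active, and these drive glucose production and the Igfbp1 gene. Feeding raises insulin, whose kinase AKT removes FOXO from the nucleus and, through a separate branch, turns on mTORC1, a kinase complex that rapamycin inhibits in part. mTORC1 is known to promote protein synthesis, ribosome production and the processing of SREBP proteins, the transcription factors of cholesterol and fatty acid synthesis.

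Values are deposited probe set intensities, and changes are differences of means of log2 intensity with values below a floor of 6.31 set to it. A change counts as passing where limma's adjusted p lies under 0.05 over all 6568 probe sets tested. A gene with several probe sets is described by the brightest one. The arrays of the series fall into 2 sets by how many of their values are 0 or negative (border 31%). All 3 rapamycin arrays at 0 h (26.9% to 28.2%) and replicates 1 and 2 at 3 h belong to set 2, while replicate 3 at 3 h (38.6%) belongs to set 1. Every vehicle array at 0 h belongs to set 1 and every one at 3 h to set 2, so feeding and array set cannot be told apart in vehicle mice. Counts are therefore also given with a term for the array set and, for rapamycin, from the 5 set 2 arrays alone. The term is estimated only from groups with arrays of both sets, which are rapamycin at 3 h and rapamycin at 6 h. At 0 h the 2 drugs lie in different sets, so drug and array set cannot be told apart there either. The tissue label fits its markers: the summed intensity of the 9 hepatocyte markers on the array was 26894 to 30477 at 0 h and 24666 to 29612 at 3 h. All 9 were called present on 3 or more of the 33 arrays. Hpd was low on these 6 arrays, at 27, 22 and 70 and then 0, 14 and 33.

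Under rapamycin, 104 probe sets were higher and 79 lower after 3 h of food (1.58% and 1.20% of those tested). An unadjusted p under 0.05 was reached by 885 of the 6568 probe sets. Counted as genes with 1 probe set each, 83 of 5001 were higher (1.66%) and 63 lower (1.26%), and the median change over all probe sets was 0. With a term for the array set 69 genes were higher (1.38%) and 33 lower (0.660%), and on set 2 arrays alone 72 (1.44%) and 43 (0.860%). When only the 6 arrays were fitted, without the spread of the other groups, 10 probe sets passed as higher and 18 as lower. Leaving out replicate 2 or 3 at 0 h gave 44 and 63 higher and 42 and 45 lower probe sets. Without replicate 1, 2 or 3 at 3 h there were 57, 52 and 50 higher and 50, 69 and 37 lower. The number of arrays limits what such a test can call. At shares of 1.66% and 1.26% a short list can hold no call without standing apart from other genes.

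The largest falls included genes that fasting hormones maintain. Of 13 measured gluconeogenic and insulin-repressed genes, 5 fell (Igfbp1, G6pc, Cebpb, Pck1 and Ppargc1a) and none rose, with a median change of -1.17. Of 14 genes that glucocorticoids induce, 6 fell (Zbtb16, Lpin1, Cebpd, Gadd45b, Fkbp5 and Klf9) and none rose, with a median of -1.62. Of 10 growth arrest genes of fasting, 4 fell (Gadd45b again, Cdkn1a, Ccng2 and Btg1) and none rose, with a median of -1.14. Over all genes 1.26% fell. All gene lists here were chosen with earlier results of these data known. A share above that of all genes therefore describes a list and is no independent test of it. With a floor of 30 the 3 medians were -0.46, -1.44 and -0.57. In a bulk sample, fewer cells of a type and less RNA per cell cannot be told apart.

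Igfbp1 encodes a hepatic secreted protein that binds insulin-like growth factors and is shut off by insulin. It read 1698, 3677 and 3289 on the 0 h arrays and 73, 55 and 88 on the 3 h arrays, a log2 change of -5.28 ± 0.69 (SE, adjusted p = 3.88e-05). All 3 h arrays lay far below all 0 h arrays. The Igfbp1 probe set ends in _f_at, which marks probes shared by members of a family. In vehicle mice the intensities went from 3801, 3850 and 992 to 10, 10 and 9, a fall of at least 81.3-fold against 30. Every rapamycin array at 3 h therefore stood above every vehicle array at 3 h, all of which lay near the floor. The difference between the 2 responses was 2.71 ± 0.98 and did not pass (adjusted p = 0.109, and 0.776 with a term for the array set). It shrank to 1.07 with a floor of 30 (adjusted p = 0.582).

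G6pc is the catalytic subunit of glucose-6-phosphatase, which releases free glucose from the liver. Its arrays read 1440, 2319 and 1644 at 0 h and 357, 320 and 533 at 3 h, a change of -2.16 ± 0.35 (adjusted p = 8.35e-04), beside -2.15 in vehicle mice. Pck1, the cytosolic enzyme that commits carbon to gluconeogenesis, read 2462, 3055 and 2231 at 0 h and 459, 954 and 864 at 3 h, a change of -1.82 ± 0.31 (adjusted p = 0.00144), beside -2.22. For both genes the 0 h and 3 h arrays did not overlap, and on every 3 h array they stayed well above the floor. Cebpb, a bZIP transcription factor of the fasted liver, fell from 552, 570 and 530 to 169, 120 and 114 (change -2.06, adjusted p = 0.00763). Ppargc1a, the coactivator PGC-1α, lay between 13 and 31 at 0 h and at or under 2 at 3 h, and its call (-1.64, adjusted p = 0.0164) was lost with a floor of 30 (adjusted p = 1.0). Tat, a tyrosine-catabolising enzyme, stood at -0.84 (adjusted p = 0.0542), and Irs2, the insulin receptor substrate of fasted liver, at -1.17 (adjusted p = 0.535) with no array above 32. Fbp1 and Pcx, gluconeogenic enzymes, stood at -0.01 and -0.06, with neither passing.

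Promoter sequences of Igfbp1 and Pck1 are shown because both genes are classic cases of insulin and cyclic AMP control. They are RefSeq windows of GRCm38.p6 from 250 bases before to 50 after the annotated start, on the + strand, at chr11:7197537-7197836 and chr2:173152823-173153122. Capitals mark, in Igfbp1, TGTTTTG and TATTTTG, cores of insulin response elements that FOXO1 is known to bind, and in Pck1, TTACGTCA, its cyclic AMP response element. Both strands were searched.
Igfbp1: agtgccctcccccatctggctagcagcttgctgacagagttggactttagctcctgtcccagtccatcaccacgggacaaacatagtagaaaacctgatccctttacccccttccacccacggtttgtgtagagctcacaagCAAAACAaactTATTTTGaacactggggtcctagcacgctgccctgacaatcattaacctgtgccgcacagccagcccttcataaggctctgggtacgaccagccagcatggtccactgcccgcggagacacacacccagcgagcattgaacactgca
Pck1: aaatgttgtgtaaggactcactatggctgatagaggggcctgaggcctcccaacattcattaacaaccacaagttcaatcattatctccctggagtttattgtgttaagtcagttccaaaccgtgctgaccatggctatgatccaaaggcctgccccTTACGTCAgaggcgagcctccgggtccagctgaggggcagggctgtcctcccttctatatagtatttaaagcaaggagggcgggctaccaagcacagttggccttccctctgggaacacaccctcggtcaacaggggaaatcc
In Igfbp1, TGTTTTG starts 108 bases before the start, read on the other strand, and TATTTTG 97 bases before it, with no overlap between them. In Pck1, TTACGTCA starts 93 bases before the start. Of all 32851 promoter windows, 6.28% hold TGTTTTG, 4.36% TATTTTG and 0.499% TTACGTCA. Counted as genes with such a motif in at least 1 window, the shares are 7.2%, 5.04% and 0.581% of 27025. Of the 14 genes that fell in the 3 lists, 12 have a window in the table. Of these 12, 3 hold TGTTTTG, 1 TATTTTG and 2 TTACGTCA. A match describes these letters and says nothing of binding in these livers.

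Lpin1 had the smallest p of all probe sets in this comparison. It encodes lipin 1, a phosphatidate phosphatase of fat synthesis that also acts with PGC-1α in the fasted liver. It read 789, 774 and 1102 at 0 h and 47, 66 and 48 at 3 h, a change of -4.05 ± 0.36 (adjusted p = 3.10e-07), beside -3.85 in vehicle mice. Its relative Lpin2 fell from 281, 306 and 394 to 40, 58 and 47 (-2.76, adjusted p = 4.63e-06), with a second probe set at -0.87. Zbtb16, the transcriptional repressor PLZF and a strongly glucocorticoid-induced gene, went from 248, 194 and 227 to 10, 8 and 11. With all 3 h arrays under 30, the fall was at least 7.4-fold against 30 (fitted change -4.53, adjusted p = 6.44e-06). Klf9, a zinc finger factor, fell by 1.30 on the log2 scale and Fkbp5, a chaperone of the glucocorticoid receptor, by 2.06. Fkbp5 read 254, 210 and 509 and then 56, 106 and 63, so that its groups lay apart.

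Other glucocorticoid targets were less certain. Cebpd went from 80, 107 and 153 to 21, 15 and -1 and its call (-3.12, adjusted p = 0.0471) was lost with a term for the array set (0.131). Gadd45b, a growth arrest gene, had no array above 53, and its call was lost with a floor of 30 (adjusted p = 0.782). Ddit4, an inhibitor of mTORC1 signalling that glucocorticoids induce, stood at -4.15 ± 1.26 and did not pass (adjusted p = 0.0848). The metallothioneins Mt1 and Mt2 stood at -1.17 and -1.57, with adjusted p = 0.518 and 0.338. With a term for the array set the number of glucocorticoid-induced genes that fell was 4, and on set 2 arrays alone it was 7. For the gluconeogenic list these counts were 5 and 6, and for growth arrest genes 2 and 2. When only the 6 arrays were fitted, the gluconeogenic, glucocorticoid-induced and growth arrest lists held 2, 3 and 1 falls. Glucocorticoid-induced falls numbered 3 without replicate 1 or 3 at 3 h. Growth arrest falls numbered 1 without replicate 3 at 0 h or replicate 2 at 3 h, and 2 without replicate 2 at 0 h or replicate 1 or 3 at 3 h.

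Among growth arrest genes, Cdkn1a, the cell cycle inhibitor p21, read 216, 177 and 247 at 0 h and 78, 24 and 73 at 3 h (-2.04, adjusted p = 0.0111). Its vehicle change was -3.05, and the difference of the responses (1.02) did not pass (adjusted p = 0.364). Ccng2, the FOXO target cyclin G2, went from 112, 126 and 137 to 34, 37 and 38 (-1.78, adjusted p = 0.0276, and 0.0794 with a term for the array set). Its vehicle arrays at 3 h read 26, 7 and 10, below all 3 rapamycin arrays, with a difference of responses of 1.70 ± 0.62 (adjusted p = 0.113). Btg1, an antiproliferative gene, fell by 1.48 under rapamycin (adjusted p = 8.35e-04) and by 2.09 in vehicle mice (adjusted p = 2.79e-06). Each of the 3 had a smaller fall under rapamycin than in vehicle mice, but no difference passed.

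Falls outside these lists included several metabolic and signalling genes. Slc25a47, a carrier of the inner mitochondrial membrane found mainly in liver, fell from 1638, 1581 and 1466 to 300, 268 and 374 (-2.33 ± 0.25, adjusted p = 4.63e-06). Angptl4, a secreted inhibitor of lipoprotein lipase, was the only one of 21 fatty acid oxidation and ketogenesis genes that passed, while 1.26% of all genes fell. It fell by 1.66, and a second probe set for it by 2.51. Another, marked r_at, stood at 0.11 (adjusted p = 0.881). Rgs16, a brake on G protein signalling, fell from 482, 427 and 348 to 71, 77 and 65 (-2.55, adjusted p = 8.44e-05). Npc1, which moves cholesterol out of lysosomes, fell by 1.01 (adjusted p = 8.15e-04) and by 1.03 in vehicle mice. Ccn2, a matricellular growth factor, went from 32, 82 and 41 to 6, 10 and -9 (adjusted p = 0.00857), all low values whose call was lost with a floor of 30 (0.173).

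Egr1, an immediate early factor, went from 48, 116 and 103 to 11, 9 and 21 with non-overlapping groups (-2.70, adjusted p = 0.0468, and 0.0958 with a term for the array set). Of 15 measured circadian clock genes 2 fell, against 1.26% of all genes. Nfil3 and Cry1, repressors of the clock, fell by 2.29 and 0.92. Both calls were lost with a term for the array set (adjusted p = 0.0622 and 0.0833). The autophagy genes Ulk1 (-0.95), Map1lc3b (-0.85, but -0.26 in a second probe set) and Bnip3 (-0.66) passed among 23 measured genes of autophagy and lysosome, against 1.26% of all genes. The list did not lean down, with 11 changes above 0, 12 below and a median near 0. None of the 3 passed with a term for the array set (adjusted p = 0.103, 0.0953 and 0.0813). Pdk4, which restrains glucose oxidation, stood at -2.02 ± 0.60 (adjusted p = 0.0772), and Cpt1a, the entry gate of fatty acid oxidation, at -0.24 (adjusted p = 0.603).

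A further 3 falls were chosen for description after their values were seen, because they passed under the array set term, on set 2 arrays alone and with a floor of 30. Mknk2, a kinase of the cap-binding protein eIF4E, read 200, 223 and 259 at 0 h and 67, 64 and 54 at 3 h (-1.88 ± 0.23). St3gal5, the synthase of the ganglioside GM3, read 624, 747 and 886 and then 182, 235 and 208 (-1.85). Erbb3, a neuregulin receptor, read 250, 261 and 261 and then 106, 100 and 87 (-1.40). Vehicle changes of the 3 genes were -2.34, -1.52 and -1.36, all passing. In all, 21 of the 63 genes that fell met those 3 conditions.

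**Figure D1:**
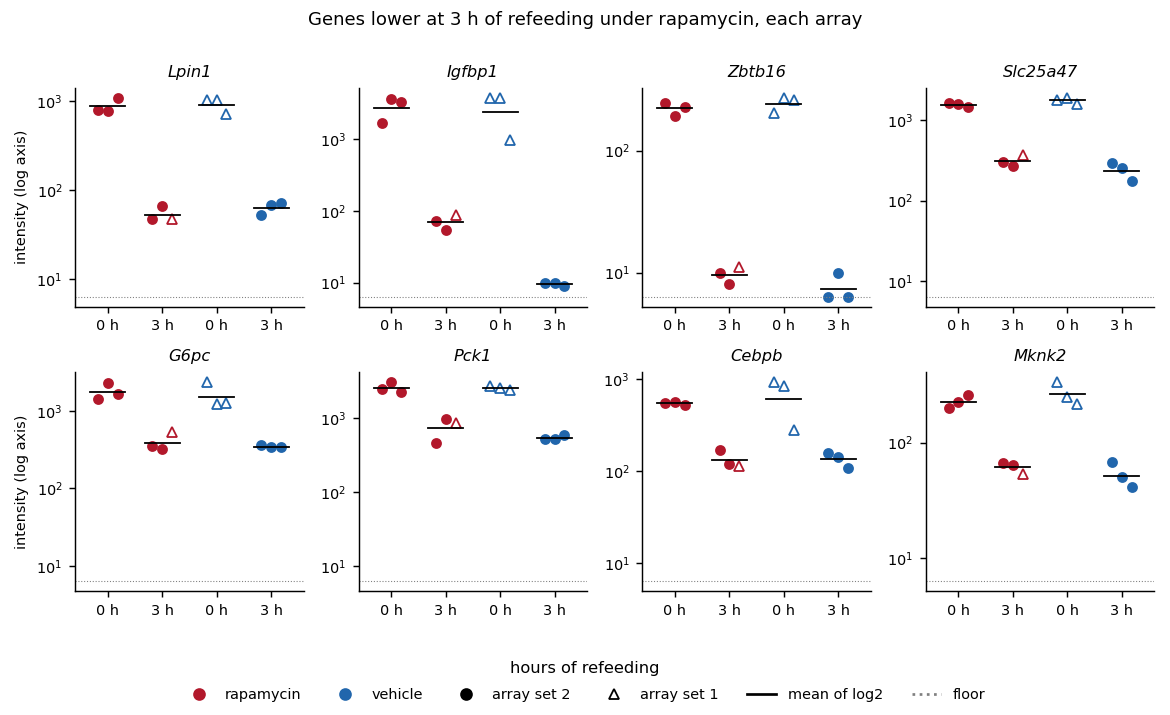
Intensity (log axis) on each array of 8 genes that fell at 3 h of refeeding under rapamycin, with rapamycin in red and vehicle in blue at 0 h and 3 h; filled circles are array set 2, open triangles set 1, bars the mean of log2 values and the dotted line the floor of 6.31. For Igfbp1 the rapamycin arrays at 3 h (73, 55 and 88) lie above the vehicle arrays (10, 10 and 9).

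The rises were mostly smaller than the falls. Over the 83 genes that rose the median change was 1.04, and over the 63 that fell it was -1.35. The 12 named by size were Gss, Tuba1a, Cyp26a1, Lasp1, Txnl4a, Bmi1, Slc22a30, Josd2, Uck1, Txndc5, Wwc1 and Arpc4, from 3.58 down to 1.96. Txnl4a, Josd2, Uck1 and Arpc4 passed neither with a term for the array set nor with a floor of 30, and Cyp26a1, a retinoic acid hydroxylase, and Bmi1, a polycomb protein, did not pass with a floor of 30. Wwc1, a Hippo pathway scaffold, passed in both its probe sets (1.98 and 1.46). Gss, glutathione synthetase, rose in 1 probe set from at most 3 on each 0 h array to 57, 76 and 99, at least 2.51-fold against 30, but its brighter probe set stood at -0.03 (adjusted p = 1.0). Slc22a30, an organic anion transporter of liver and kidney, rose from 67, 45 and 27 to 220, 290 and 120 (2.19 ± 0.44, adjusted p = 0.00629) and passed under the 3 alternatives named above.

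Lasp1, an actin-binding adaptor, went from 98, 77 and 2 to 205, 197 and 202 (2.47, adjusted p = 0.0242). Replicate 3 at 0 h set much of the size. Without it the change was 1.21 (adjusted p = 0.0755), and without any single array at 3 h it did not pass either (adjusted p = 0.0624 to 0.0802). A second, dimmer probe set stood at 0.86 (adjusted p = 0.699). Txndc5, a disulfide isomerase of the endoplasmic reticulum, read at most 38 at 0 h and at least 60 at 3 h (2.05, adjusted p = 0.0181). On set 2 arrays alone its adjusted p was 0.128. Pik3r1, a regulatory subunit of the insulin-activated PI3 kinase, was the only one of 13 insulin and mTORC1 signalling genes to pass. Over all genes 1.66% rose. Pik3r1 read 26, 22 and 32 at 0 h and 60, 109 and 74 at 3 h (1.57 ± 0.29, adjusted p = 0.00286), with no overlap. In vehicle mice it went from -9, -10 and 7 to 83, 87 and 90, so that the 3 h levels of the 2 drugs overlapped while the 0 h levels did not. Those 0 h readings lie near or under 30 and in different array sets, so drug and set cannot be told apart.

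Bright transcripts of the cytoskeleton were among the firmest rises; they were picked after their values were seen and carry no claim for the group. Actg1, cytoplasmic γ-actin, read 586, 452 and 611 at 0 h and 1535, 1967 and 2052 at 3 h (1.75 ± 0.20, adjusted p = 5.02e-06), beside 1.93 in vehicle mice. Actb, cytoplasmic β-actin, read 368, 975 and 428 and then 1310, 612 and 447, with overlapping groups (0.41, adjusted p = 0.797). Of 8 measured tubulin genes 6 were higher, both with and without the array set as a term, and 3 were higher on set 2 arrays alone. Tuba1c rose from 380, 212 and 159 to 618, 654 and 735 (1.51), and Tubb2a from 322, 237 and 313 to 612, 518 and 823 (1.15). The 6 probe sets end in _f_at, which marks probes shared by members of a family, so that the 6 tubulins cannot be counted as separate genes. Other probe sets named here have the same suffix, among them those of Igfbp1, Gadd45b and Cry1 and the second one of Angptl4. Tuba8 (-0.70) and Tuba4a (-0.34), whose probe sets are not so marked, did not pass.

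The keratins of hepatocytes, Krt8 and Krt18, also rose. Krt18 went from 162, 169 and 212 to 406, 349 and 387 (1.08, adjusted p = 3.34e-04) and Krt8 from 155, 135 and 142 to 202, 234 and 243 (0.65, adjusted p = 0.00857). Lmna, the nuclear lamin A gene, read 100, 83 and 83 and then 191, 172 and 185 (1.05 ± 0.13, adjusted p = 1.68e-05). Pter, a phosphotriesterase-related gene, read 116, 89 and 90 and then 246, 290 and 221 (1.36, adjusted p = 8.44e-05). Krt18, Krt8, Lmna and Pter passed under the array set term, on set 2 arrays alone and with a floor of 30, as did 32 of the 83 genes that rose. Krt8 also marks bile duct cells, whose markers Krt7, Krt19 and Epcam read at or below 30 on all 6 arrays. Of the others on the array, Muc1 read 18, 22 and 29 at 0 h and 34, 33 and 38 at 3 h, without overlap, and Cftr read at most 31. The sum over the 6 bile duct markers on the array, Krt8 included, was 188 to 196 at 0 h and 251 to 291 at 3 h, and its part in the keratin rises was not tested.

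Single members of other lists rose, as did 1.66% of all genes, so 1 call in a list says little of that list. Sec61b, a subunit of the channel through which proteins enter the endoplasmic reticulum, went from 58, 48 and 52 to 134, 99 and 98 (1.06, adjusted p = 0.00857), beside 0.59 in vehicle mice, which did not pass (adjusted p = 0.0575). Gspt1, the termination factor eRF3a and the only one of 25 translation factor genes to pass, rose by 0.59 (adjusted p = 0.00492). Glud1, mitochondrial glutamate dehydrogenase, rose by 0.49, and Nr2f2, an orphan nuclear receptor, by 0.65. Of 18 urea cycle and amino acid breakdown genes 1 rose, and of 16 liver nuclear receptors 1.

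**Figure D2:**
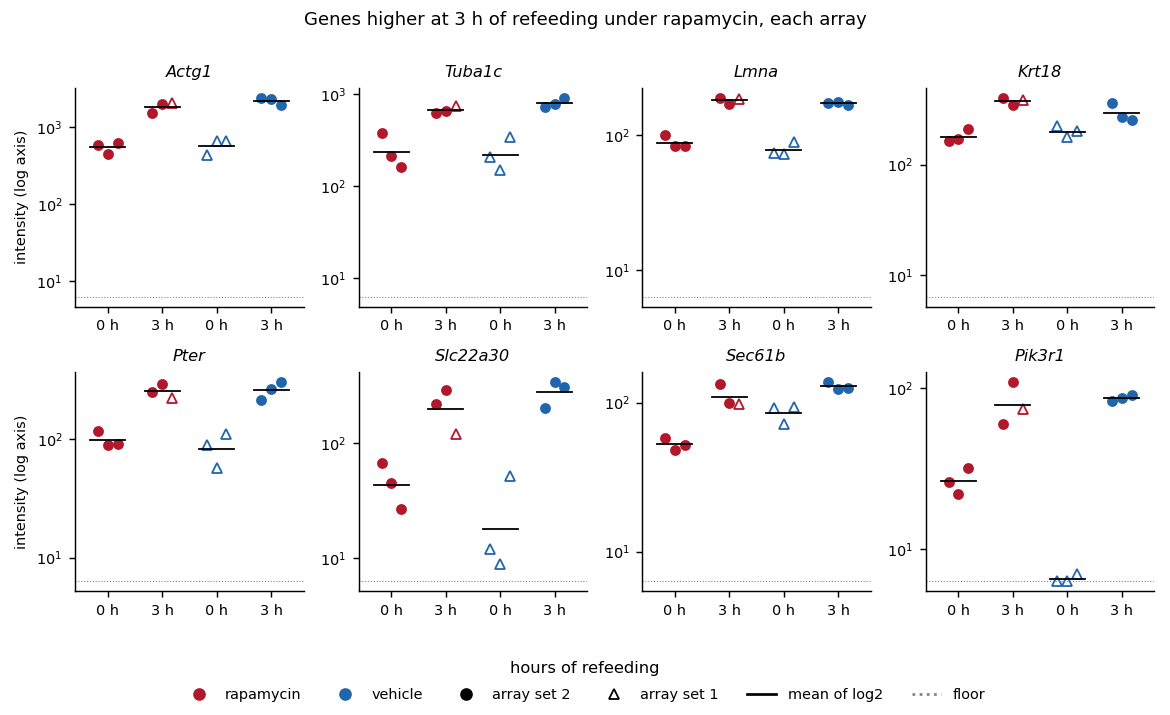
Intensity (log axis) on each array of 8 genes that rose at 3 h of refeeding under rapamycin, drawn as in the plot of genes that fell. Actg1 goes from 586, 452 and 611 to 1535, 1967 and 2052. At 0 h Pik3r1 reads 26, 22 and 32 under rapamycin (set 2) and -9, -10 and 7 with vehicle (set 1), so drug and array set cannot be told apart.

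Cholesterol synthesis genes gave no call at 3 h under rapamycin as fitted here. Of 16 measured genes none passed limma's test in either direction (4 had an unadjusted p under 0.05), and the median change was -0.10. Over all genes 1.66% were higher and 1.26% lower under rapamycin, so a list of this size with no call is not unusual. Under other settings at most 1 gene was higher (quantile normalization, a floor of 30 and set 2 arrays alone) and at most 1 lower (quantile normalization, a doubled floor, the filter on 11 arrays, trended eBayes, and without replicate 1 at 3 h). By the same test 11 of the 16 were higher in vehicle mice at 3 h, none was lower, and the median was 2.46. With a floor of 30 the vehicle count was 9 and the median 1.30, and when only the groups compared were fitted the count was 5. In that comparison 19.8% of all genes were higher. The difference of the responses passed as lower under rapamycin for 10 of the 16, against 4.40% of all genes, with a median difference of -2.15. With a term for the array set 10 of 16 were higher in vehicle mice (1.90% of all genes), and none of the 16 differences passed (12 had an unadjusted p under 0.05), although the median difference was -2.46. With a floor of 30, 6 of the differences passed (1.44% of all genes), and when only the groups compared were fitted none did.

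The 3 h levels can be compared within array set 2, since the 3 vehicle arrays and 2 of the 3 rapamycin arrays belong to set 2. For 10 of the 16 genes, all 3 rapamycin arrays at 3 h lay below all vehicle arrays at 3 h, against 8.86% of all genes. On the 2 set 2 arrays alone it was again 10 of 16, against 12.7% of all genes, in a comparison added after seeing the data. None of the 16 lay above in either.

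The pathway runs from acetyl units to mevalonate, to isoprenoids and to sterols. Hmgcs1, the synthase that makes the precursor of mevalonate, read 139, 156 and 110 at 0 h and 100, 176 and 171 at 3 h under rapamycin (0.11 ± 0.35, adjusted p = 0.954). With vehicle it read 89, 65 and 204 and then 286, 599 and 749 (2.25). All rapamycin arrays at 3 h were below all vehicle arrays at 3 h and overlapped their own 0 h arrays. The difference of the responses was -2.14 ± 0.49 (adjusted p = 0.0138).

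Idi1, the isomerase that makes the activated isoprene unit for farnesyl synthesis, read 25, 43 and 24 and then 18, 50 and 51 under rapamycin (0.28 ± 0.52, adjusted p = 0.899). Vehicle arrays at 3 h read 155, 267 and 325 (change 4.23), and the difference of the responses was -3.95 ± 0.74 (adjusted p = 0.00497, and 0.0753 with a term for the array set), or -2.57 with a floor of 30 (0.0147). Rapamycin arrays at 3 h thus overlapped their 0 h arrays and stood below every vehicle array. Fdps, which makes farnesyl diphosphate, read 52, 46 and 21 and then 41, 29 and 32 (-0.13), with vehicle at 3 h at 107, 213 and 306.

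Sqle, squalene epoxidase, read 24, 40 and 26 and then 38, 46 and 43 (0.53 ± 0.40, adjusted p = 0.616), with vehicle at 3 h at 133, 169 and 244 and a difference of the responses of -3.08 (adjusted p = 0.00421, and 0.136 with a term for the array set). Fdft1, squalene synthase, read 90, 53 and 15 and then 78, 100 and 75 (1.01, adjusted p = 0.532), and its difference did not pass (adjusted p = 0.0721). Cyp51, the lanosterol demethylase, was at or under 0 on all 3 rapamycin arrays at 3 h. Vehicle arrays at 3 h read 42, 95 and 148. Sc5d, a desaturase of late sterol synthesis, was the 1 gene of the 16 with all 3 h arrays above all 0 h arrays (62, 62 and 34, then 103, 140 and 75). Its change of 1.02 ± 0.32 did not pass (adjusted p = 0.102), but did on set 2 arrays alone (adjusted p = 0.0432) and with a floor of 30 (0.0492). Against that 1 of 16, 10.3% of all genes had non-overlapping higher arrays, and 2 of the 16, Cyp51 and Hsd17b7, had lower ones, against 6.06% of all genes.

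Genes of this list were high later under rapamycin. The 6 h and 12 h comparisons use the same 0 h arrays as the 3 h one. At 6 h and again at 12 h, 15 of 16 genes had every array above every 0 h array, against 17.9% and 23.4% of all genes. The other, Tm7sf2, a sterol reductase, had every array below, as did 19.1% and 22.7% of all genes. Idi1 read 1351, 1131 and 595 at 6 h and 1496, 1554 and 1095 at 12 h, and Hmgcs1 1819, 1629 and 1167 and 1445, 1650 and 1442. On single arrays the median intensity of the 16 genes was 25 to 57 at 0 h, 32.5 to 44 at 3 h, 291.5 to 420.5 at 6 h and 382.5 to 475.5 at 12 h. In vehicle mice it was 13 to 49.5 at 0 h and 109 to 212 at 3 h.

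**Figure D3:**
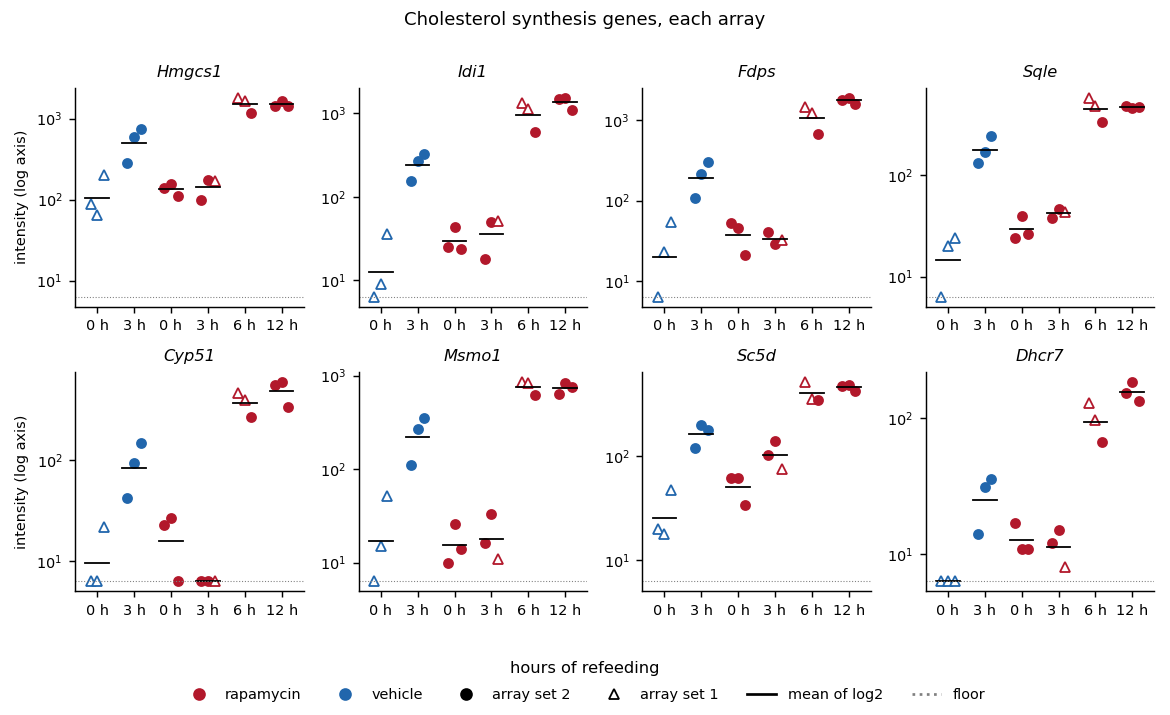
Intensity (log axis) of 8 cholesterol synthesis genes on each array of vehicle mice (blue) at 0 h and 3 h and of rapamycin mice (red) at 0, 3, 6 and 12 h; filled circles are array set 2, open triangles set 1, bars the mean of log2 values and the dotted line the floor. Idi1 under rapamycin stays at 18, 50 and 51 at 3 h and reaches 1351, 1131 and 595 at 6 h.

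Promoters of Hmgcs1 and Idi1 show the letters through which sterol genes are known to be controlled. SREBP binds sterol regulatory elements, searched here as TCACNCCAC, next to NF-Y at CCAAT boxes; both strands were searched and hits are in capitals, CCAAT appearing as ATTGG on these strands. The windows, of the same kind as above and both on the + strand, are chr13:119690101-119690400 and chr13:8885356-8885655.
Hmgcs1: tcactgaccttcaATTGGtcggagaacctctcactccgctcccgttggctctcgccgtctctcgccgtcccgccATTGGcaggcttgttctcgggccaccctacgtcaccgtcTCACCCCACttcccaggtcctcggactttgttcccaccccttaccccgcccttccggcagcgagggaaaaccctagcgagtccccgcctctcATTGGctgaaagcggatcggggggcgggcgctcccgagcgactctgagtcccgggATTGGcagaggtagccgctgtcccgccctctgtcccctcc
Idi1: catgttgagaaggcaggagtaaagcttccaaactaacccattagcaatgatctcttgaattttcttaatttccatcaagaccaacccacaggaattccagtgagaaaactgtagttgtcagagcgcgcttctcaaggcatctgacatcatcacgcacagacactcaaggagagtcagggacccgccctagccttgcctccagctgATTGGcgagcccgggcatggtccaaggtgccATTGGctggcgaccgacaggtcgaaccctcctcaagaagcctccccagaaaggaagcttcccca
In Hmgcs1 the sterol element starts 137 bases before the start, and CCAAT boxes lie at 237, 176 and 45 before it and at 11 after it, with no overlap. Idi1 has CCAAT boxes at 45 and 14 before the start and no TCACNCCAC in the window. Of the 16 genes 13 have windows in the table; Fdps, Fdft1 and Sqle do not. All 13 hold a CCAAT box in at least 1 window, against 41.1% of the 27025 genes with windows, and 1 of 13 holds TCACNCCAC, against 1.44%. Of single windows, 37.4% hold CCAAT and 1.24% TCACNCCAC.

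Fatty acid and triglyceride synthesis likewise had no call. None of 13 measured genes passed limma's test under rapamycin, where 1.66% of all genes were higher and 1.26% lower. In this list 3 had an unadjusted p under 0.05, and the median was 0.11. In vehicle mice 4 were higher (Acly, Fasn, Elovl6 and Mid1ip1), against 19.8% of all genes. Fasn, the fatty acid synthase, read 195, 53 and 104 at 0 h and 105, 109 and 144 at 3 h (0.21 ± 0.57, adjusted p = 0.941), with overlapping groups. Vehicle arrays at 3 h read 130, 184 and 216, and the difference of the responses (-2.42 ± 0.81) did not pass (adjusted p = 0.086). Acly, which supplies cytosolic acetyl units, read 119, 127 and 109 and then 182, 193 and 172 without overlap (0.62, adjusted p = 0.107). Elovl6, a fatty acid elongase, stood at 0.45, Srebf1, the SREBP-1 gene, at 0.80 and Scd1, the stearoyl desaturase, at -0.71, none passing. No difference of responses passed for any of the 13 (3 at an unadjusted p under 0.05). Among 11 genes of glycolysis and the pentose phosphate path none passed (1 at an unadjusted p under 0.05), with Pklr, liver pyruvate kinase, at 0.05 (adjusted p = 1.0).

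The list of chaperones and folding genes of the endoplasmic reticulum held 1 rise among 26 under rapamycin, against 1.66% of all genes, with a median of 0.25. That 1 was Sec61b, the channel subunit given above, and no other member was called. In vehicle mice 15 of 26 were higher (median 0.65), against 19.8% of all genes, and with a term for the array set 1 of 26, against 1.90%. Under rapamycin 2 of 26 were higher with that term, against 1.38%, and 3 of 26 on set 2 arrays alone, against 1.44%. With the term the list's median was 0.40 under rapamycin and 0.39 with vehicle, and the median difference of the responses was 0.10. No difference of responses passed for any of the 26 (4 at an unadjusted p under 0.05). Hspa5, the chaperone BiP, read 680, 508 and 737 at 0 h and 1072, 1046 and 708 at 3 h (0.55 ± 0.19, adjusted p = 0.153). The low 3 h value is that of the set 1 array, and with a term for the array set the gene passed (0.73, adjusted p = 0.0248). Vehicle arrays at 3 h read 1913, 1441 and 1588, all above the rapamycin arrays. Across the list, 10 of 26 genes had all rapamycin arrays at 3 h below all vehicle arrays (8.86% of all genes), and 11 of 26 on set 2 arrays alone (12.7%).

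Cytosolic and mitochondrial heat shock genes gave 0 of 18 in either direction under rapamycin (1 at an unadjusted p under 0.05) and 8 of 18 higher in vehicle mice, or 1 of 18 with a term for the array set. Dnaja1, a co-chaperone of HSP70, read 314, 383 and 261 and then 374, 533 and 579 under rapamycin (0.63, adjusted p = 0.114) and 366, 215 and 389 and then 757, 803 and 702 with vehicle (1.27, adjusted p = 1.24e-04). Ribosome biogenesis genes gave 0 of 24 under rapamycin (2 at an unadjusted p under 0.05), and in vehicle mice 4 were higher and 1 lower, or none higher with the array set term. Over all genes 19.8% were higher in vehicle mice, and 1.90% with the term. Under rapamycin 1.66% of all genes were higher and 1.26% lower. Levels at 3 h lay wholly below those of vehicle mice for 8 of 18 heat shock genes and 10 of 24 ribosome biogenesis genes (8.86% of all genes), and wholly above for 0 and 2 (3.66%). On set 2 arrays alone 11 and 12 lay below (12.7%), and 2 and 5 above (9.12%).

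None of 18 cytosolic ribosomal protein genes, whose mRNAs mTORC1 is known to control through translation, passed limma's test (0 at an unadjusted p under 0.05, median 0.13). Eif4b, a translation initiation factor, read 215, 191 and 202 and then 254, 307 and 275 without overlap (0.46, adjusted p = 0.283), and Eif4ebp1, the mTORC1 substrate that blocks initiation, stood at -0.40. Gas5, a non-coding transcript that is degraded when it is translated, read 377, 284 and 384 and then 390, 364 and 375 (0.12, adjusted p = 0.819). With vehicle it went from 449, 542 and 295 to 266, 290 and 240 (-0.65, adjusted p = 0.00503). The difference of 0.78 ± 0.22 passed (adjusted p = 0.046) but not with a term for the array set (0.716).

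No gene passed among 35 of the proteasome, 45 of oxidative phosphorylation, 28 of drug metabolism, 25 of the acute phase, 14 of the amino acid stress response or 10 of bile acid synthesis and transport. Over all genes 1.66% were higher and 1.26% lower. At an unadjusted p under 0.05 there were 11, 6, 4, 3, 1 and 1 in that order, and 885 of all 6568 probe sets. In the proteasome list 31 of 35 changes lay above 0. There 11 of 35 genes had all 3 h arrays above all 0 h arrays, against 10.3% of all genes. Their medians lay between -0.14 and 0.24. Cyp7a1, which catalyses the first step from cholesterol to bile acids, read 458, 155 and 246 and then 379, 624 and 509 (0.93, adjusted p = 0.634). Asns, asparagine synthetase, stood at -0.06, and Myc read at most 11 on each of the 6 arrays. Igfals, the carrier of circulating growth factor complexes, was below 0 on all 0 h arrays and read -40, 56 and 90 at 3 h (2.33, adjusted p = 0.102). Lect2, a secreted protein of hepatocytes, read 127, 92 and 72 and then 118, 102 and 103 (0.19). With vehicle Lect2 was below 0 on all 0 h arrays and read 148, 151 and 140 at 3 h.

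**Figure D4:**
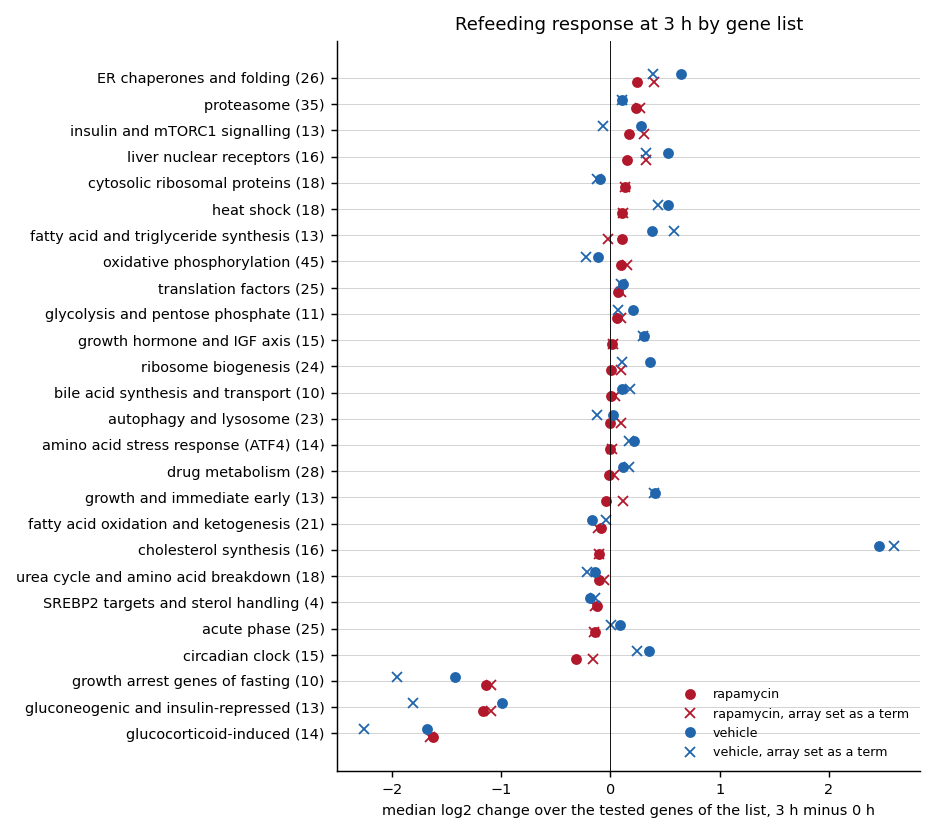
Median log2 change at 3 h over the tested genes of each pathway list (number of genes in brackets), under rapamycin (red) and with vehicle (blue); circles are the changes as reported and crosses those with a term for the array set. Cholesterol synthesis stands at -0.10 under rapamycin and 2.46 with vehicle, while the lists at the bottom lie below 0 with both.

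The rapamycin and vehicle comparisons use different arrays but come from 1 fit, with the same estimate of spread for a probe set in both. A probe set of small spread passes more readily in both, so shared calls are not independent. In vehicle mice 1304 probe sets were higher and 167 lower (19.9% and 2.54%). Of the 83 genes that rose under rapamycin, 80 had a vehicle change of the same sign and 57 were called higher there. That is 68.7% of the 83 and 5.76% of the 990 genes called higher in vehicle mice. Over all genes 19.8% were called higher with vehicle and the median vehicle change was 0.26. A vehicle change above 0 is thus common and not particular to the 83. Of the 63 that fell, 53 had the same sign and 41 were called lower, 65.1% of the 63 and 28.9% of the 142 genes called lower with vehicle (2.84% of all genes). With a term for the array set, vehicle calls were 95 higher and 47 lower (1.90% and 0.940%), of which 18 and 21 were called the same way under rapamycin. The number of vehicle calls changed far more with the array set term than the number under rapamycin. Array set and feeding coincide in vehicle mice, and whether the lost calls reflect smaller changes or wider errors was not tested. The median change over all genes in vehicle mice was 0.26, and with a term for the array set it was 0.11. Under rapamycin the medians were 0.00 and 0.07.

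The difference of the 2 responses passed for 18 probe sets as higher and 294 as lower under rapamycin (0.274% and 4.48%). An unadjusted p under 0.05 was reached by 1391 of the 6568. Counted as genes, the difference passed for 220 as lower under rapamycin and 12 as higher (4.40% and 0.240%). With a term for the array set it passed for 1 gene in each direction, 0.0200% each. Pak4, a kinase of the cytoskeleton, was the lower one, at -4.22 (adjusted p = 2.50e-04, and 0.00451 with the term). With a floor of 30 it was -1.97 and did not pass (0.0648). It read 51, 72 and 120 and then 49, 46 and 97 under rapamycin and -14, -25 and 1 and then 45, 136 and 132 with vehicle, so that its vehicle 0 h arrays stood apart from the other 9. A total of 7 genes were called in opposite directions by the 2 comparisons: Rbm6, Grik5, Limd1, Zfp612, Epha5, Cap1 and Hba-a1. For 6 of the 7 no array of either drug at 0 h or 3 h read above 60, and with a term for the array set 1, Limd1, was still called under rapamycin and none had a difference that passed. For Bhlhe40, a clock repressor, the rapamycin arrays read 35, 60 and 42 and then 52, 71 and 8, with vehicle at 93, 119 and 96 at 3 h (difference -4.54, adjusted p = 0.00182, and 0.64 with the term), or -1.66 with a floor of 30.

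Of the 3 lists that fell, with 13, 14 and 10 genes, no member had a difference of responses that passed (1, 0 and 1 at an unadjusted p under 0.05), and the median differences were 0.08, 0.29 and 0.33. A p that misses the threshold does not show that responses were alike. For Lpin1 the difference was -0.20 ± 0.51 (SE), for G6pc -0.01 ± 0.50 and for Pck1 0.39 ± 0.44. Larger fitted differences, with a smaller fall under rapamycin, included those of Igfbp1 (2.71 ± 0.98) and Btg1 (0.61 ± 0.34) and those of Cdkn1a and Ccng2 given above.

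**Figure D5:**
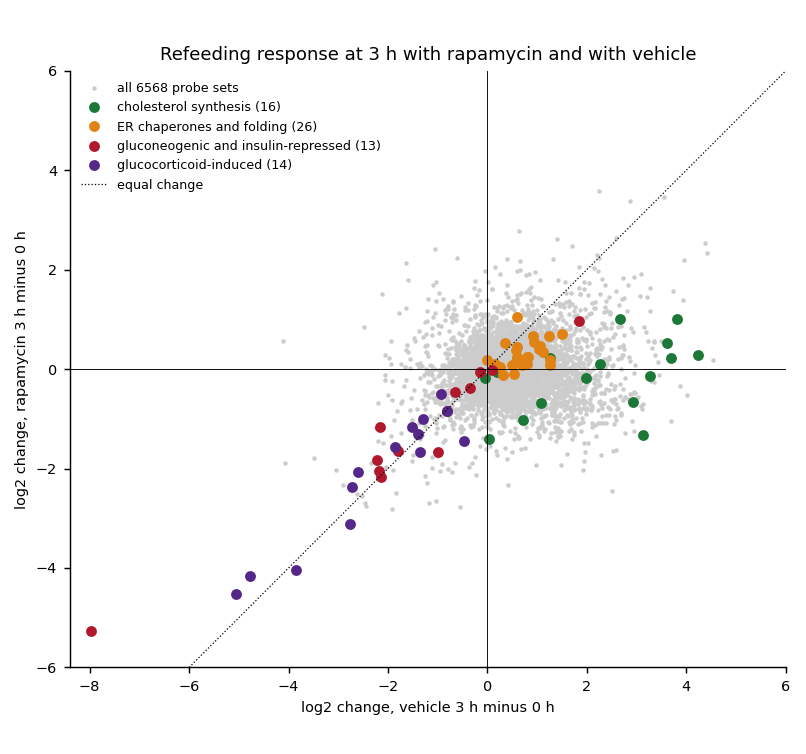
Log2 change at 3 h under rapamycin (vertical axis) against that with vehicle (horizontal axis) for all 6568 probe sets (grey), with 4 gene lists coloured and the dotted line marking equal change. Gluconeogenic and glucocorticoid-induced genes spread down along the line, and cholesterol synthesis genes lie to the right, at a median of 2.46 with vehicle and -0.10 under rapamycin.

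Markers of other cell types were summed on each array. Summed intensities at 0 h and 3 h ranged over 893 to 1137 and 1048 to 1099 for 11 of 14 Kupffer and macrophage markers on the array, 863 to 1123 and 626 to 918 for 11 of 15 lymphocyte markers, and 1538 to 1790 and 1287 to 1662 for 10 of 11 stellate and fibroblast markers. They ranged over 344 to 411 and 406 to 600 for 9 of 10 endothelial markers, 252 to 418 and 128 to 337 for 9 neutrophil markers, and 251 to 261 and 200 to 239 for 5 of 9 markers of exocrine pancreas. On all 6 arrays 2 Kupffer markers (Adgre1 and Marco), 6 lymphocyte markers (Cd3e among them), 4 endothelial markers (Pecam1 among them) and 3 stellate markers (Acta2 among them) read at or below 30. Others of the same lists were well above it, with Clec4f at 156 to 214, C1qc at 220 to 279, Ms4a1 at 321 to 555, Eng at 139 to 301 and Dcn at 779 to 1142. Red cell markers moved: the sum over 5 of 7 was 1036 to 1435 at 0 h and 2084 to 2594 at 3 h. Hba-a1, α-globin, read 1109, 856 and 791 and then 1969, 1663 and 1638 (0.95, adjusted p = 0.045, and 0.0929 with a term for the array set). Vehicle arrays read 2926, 2069 and 1035 at 0 h and 1034, 1011 and 1367 at 3 h. In vehicle mice the sum over the same 5 markers was 1332 to 3931 at 0 h and 1354 to 1735 at 3 h. The part of red cell RNA in the other results was not tested.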

How the data were processed

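Liver RNA of 33 mice had been hybridised to Affymetrix MG-U74Av2 arrays. The deposited values are probe set intensities on a linear scale with values below 0, per the file headers. The authors also deposited detection calls, which could not be matched to samples and were only counted over the 33 arrays; 66 per-array columns of that table were not used. All 12488 probe sets were read, of which 10855 have 1 gene symbol, 396 several and 1237 none. Each array's mean with values below 30 set to 30 was 118 to 124, so no further scaling was applied. Trimmed means ranged over 53.2 to 69.9, and 2989 to 5714 probe sets were called present per array.

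Values below 6.31, which is 0.1 of the average trimmed mean, were set to that floor before log2. The 6568 probe sets present on 3 or more arrays were tested in 1 limma fit over the 11 groups (limma 3.58.1, R 4.3.3, 22 residual degrees of freedom), and p-values were adjusted by Benjamini-Hochberg over all of them. Tables and plots used Python 3.11.15, pandas 2.3.3 and matplotlib 3.10.9. The fit was tested on simulated data. Alternatives were other floors and filters, quantile and trimmed mean scaling, the array set as a term, set 2 arrays alone, only the groups compared, the replicate number as a block, and each array left out.

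Members, gene lists and named genes were chosen with earlier results of these data known. Named by rule were the 12 largest rises and 12 largest falls that passed, up to 4 passing members of each list, the 8 smallest p for the difference of the responses, and a set of feeding genes. Some genes of that set are not reported here. Genes named beyond the rule were chosen after their values were seen, among them Fkbp5, Klf9, Tat, Fbp1, Pcx, Ddit4, Mt1, Mt2, Hmgcs1, Fdps, Cyp51, Sc5d, Mid1ip1, Dnaja1 and the genes called in opposite directions. Same-numbered arrays of the 0 h and 3 h groups correlated at 0.101, 0.0633 and 0.0530 in their deviations from group means. Gene symbols come from GEO's platform annotation, 10839 of them matched to RefSeq by gene ID, and promoter windows from RefSeq, GRCm38.p6.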

Additional observations from a re-analysis of the deposited data

Results flagged for a closer look

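The response to 3 h of food differed between rapamycin and vehicle, by limma's test of the difference itself, for 312 probe sets. In the genes named above the difference on the log2 scale was -2.15 for Pik3r1, -4.22 for Pak4, -3.95 for Idi1, -3.08 for Sqle, -4.54 for Bhlhe40, -4.35 for Lect2 and 0.78 for Gas5. It was -3.95 for Limd1, a LIM domain protein, and -2.37 for Epha5, an ephrin receptor. It was -3.37 for Cstf2, an RNA 3' end processing factor, -2.45 for Setdb1, a histone methyltransferase, -3.58 for Umps, of pyrimidine synthesis, and -3.61 for Pnliprp2, a pancreatic lipase relative. Many of these values rest on readings near the floor. With a floor of 30, 8 of the 13 no longer passed, among them Pak4, Pik3r1 (-0.17) and Epha5, which read at most 22 on all 12 arrays. Limd1 passed at -0.59 (adjusted p = 0.00554). Once a term for the array set was added, Pak4 alone of these 13 passed (adjusted p = 0.00451). Vehicle arrays at 0 h all belong to set 1 and those at 3 h to set 2, so feeding and array set cannot be told apart in the vehicle response.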

How the results depend on the processing

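Under rapamycin, 104 probe sets were higher and 79 lower, and the array set term lowered the latter to 42. Only the groups compared gave 10 and 18. Leaving out 1 array gave 44 to 146 higher and 37 to 79 lower. For vehicle, 1304 higher and 167 lower became 562 and 321 with quantile normalization, 736 and 583 with trimmed mean scaling, 118 and 58 with the array set term, 129 and 65 with that term and a floor of 30, and 518 and 61 with only the groups compared. Leaving out 1 array gave 805 to 1644 higher and 107 to 276 lower. The difference of the responses passed for 312 probe sets, for 116 with quantile normalization, 102 with a floor of 30, 2 with the array set term, 4 with that term and a floor of 30, 194 when present on at least 11 arrays and 6 with only the groups compared. Leaving out 1 array gave 95 (rapamycin 3 h, replicate 3) to 834 (vehicle 0 h, replicate 3). The difference for Pik3r1 went from -2.15 to -0.17 with the floor of 30 alone (adjusted p = 0.785), to -1.94 with the array set term alone and to 0.042 with both (adjusted p = 1). With only the groups compared fewer arrays estimate the spread; the cause of the other changes was not tested. Set 2 arrays alone could give no vehicle value. The replicate numbers share no stated source, and not every same-number correlation exceeded 0.1, so they do not pair the samples. With the replicate block the counts were 87 and 64 under rapamycin, 1253 and 154 for vehicle and 270 for the difference. Of 45 named probe sets that passed under rapamycin, 9 of 8 genes (Angptl4, Cebpb, Igfbp1, Lpin1, Lpin2, Rgs16, Slc25a47 and Zbtb16) passed under every alternative, and 34 did not with only the groups compared. Values near the floor carry no order.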
